A study of Mus musculus with 54 samples.

Results

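The 39 genes described here encode enzymes that break amino acids down in the liver, the enzymes of the urea cycle, and the carrier that brings ornithine into mitochondria for that cycle. They were chosen by name for their place in these pathways, and all 39 were present among the 24346 gene symbols of the table. Liver RNA was measured by RNA sequencing in 3 genotypes of mice at 6 times of day, Zeitgeber time (ZT, hours after lights on) 0, 4, 8, 12, 16 and 20, with 3 livers in each of the 18 groups. In RE mice a floxed STOP sequence interrupts Bmal1 (gene symbol Arntl), which encodes a core activator of the circadian clock, and Syt10-Cre restores the gene in the suprachiasmatic nucleus, the central clock of the brain. KO mice carry the same floxed STOP sequence without Cre, so RE and KO livers share the interrupted gene by design. WT mice have Bmal1 everywhere. The sources used here give no age, sex, strain or feeding schedule, and Cre activity outside the suprachiasmatic nucleus was not analysed here. The labels name 3 livers a group but do not say that each came from a separate animal, so p-values measure the spread between these samples.

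Hepatocytes pass the amino groups of most amino acids to glutamate, from which nitrogen enters the urea cycle, while the remaining carbon skeletons feed glucose synthesis, ketone bodies or the citric acid cycle. Many of these enzymes are known to respond to protein intake, glucagon and glucocorticoids, and several are made mainly in hepatocytes around the portal vein. In nocturnal mice, feeding and the clock both give such genes a time of day. The 3 genotypes ask which part of that timing goes with Bmal1 in the central clock and which with Bmal1 elsewhere. By design RE and WT differ in other tissues as well as in the liver, so the part of the liver's own clock cannot be told apart.

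The targeted gene was read first. Arntl had 7.60, 11.3 and 15.5 FPKM (lowest, median and highest of 18 livers) in RE, 9.76, 12.2 and 14.2 FPKM in KO and 0.202, 5.19 and 10.3 FPKM in WT. FPKM, the unit of the authors' deposited table, counts fragments per length of transcript and per depth of the library. These values cover the whole gene and check nothing of the STOP allele. Hepatocyte markers were high in every library. Albumin (Alb) was listed at 0 in 2 RE, 1 KO and all 18 WT livers while it had at least 9890 FPKM elsewhere, so no fold is given for it, and no member was listed at 0 in any liver. Without Alb, the other 4 hepatocyte markers summed to a median of 25800.1 FPKM in RE, 21673 in KO and 25516 in WT livers. The 5 bile duct markers, chiefly Spp1, summed to a median of 64.2 FPKM in RE and 68.9 in KO, against 27.5 in WT, with ranges of 20.7 to 149, 26.0 to 171 and 18.1 to 127. Spp1 alone had medians of 59.9, 62.2 and 22.8 FPKM in RE, KO and WT. The Sox9 median was also higher in RE and KO than in WT, whereas those of Krt19, Krt7 and Epcam were lower. The sum therefore follows Spp1 and is not shared by all markers of the list. Pericentral hepatocyte markers summed to a median of 5604 FPKM in RE, 4966 in KO and 5148 in WT, and periportal ones to 1858, 1661 and 1883, in each case with overlapping ranges. Within the periportal list, medians in RE, KO and WT were 203, 199 and 310 FPKM for Hsd17b13 but 575, 534 and 440 for Pck1. The 5 Kupffer cell markers summed to a median of 45.6 FPKM in RE, 61.3 in KO and 73.0 in WT, with overlapping ranges. Each of them had a lower median in RE and KO than in WT. The part of these cells in the level differences given below was not tested, and in whole liver fewer cells of a type and less RNA per cell cannot be told apart. Kidney and muscle markers summed to at most 0.238 FPKM in any liver. Some libraries stood apart: WT ZT0 liver 0 had 3.35 FPKM of the gut marker Krt20, WT ZT4 liver 0 and KO ZT16 liver 2 had the highest bile duct sums of their genotypes, and RE ZT16 liver 2 had 22.4 FPKM of the pancreas marker Cela2a with 3 of the other 4 pancreas markers at 0. Exons of 8 members overlap those of another gene model: Nags (Gm11586), Gls2 (Spryd4), Got2 (Gm45760), Aldh4a1 (Gm21969, on the same strand), Sds (Gm15690 and Plbd2), Bhmt (Gm15622), Acmsd (2900009J06Rik) and Bckdha (B3gnt8). The sources used here give no strandedness, and reads in the shared bases cannot be told apart. RE ZT0 liver 2 and RE ZT16 liver 2 held the highest RE value of 16 and 8 members.

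Most of these genes cycled over the day in RE and in WT livers, and none was called rhythmic in KO livers. A 24 h rhythm was tested for every gene with limma on log2(FPKM + 1), and called at an adjusted p (Benjamini and Hochberg, over all 10932 genes tested) under 0.05. The amplitude is the height from mean to peak on that log2 scale. In RE livers 23 of 39 members were called rhythmic, where 46.8% of all tested genes were. In KO livers 0 of 39 were called, where 0.0366% of all tested genes were; 1 member passed an unadjusted p under 0.05. In WT livers 20 of 39 were called, where 34.8% of all tested genes were. The median amplitude over the 39 was 0.23 in RE, 0.08 in KO and 0.21 in WT, and over all tested genes 0.16, 0.08 and 0.14. With the spread of the RE livers alone in place of the spread pooled over genotypes, 15 members were called in RE. The share of all tested genes under that fit is not given here. Within groups, the median SD of the members was 0.19 (log2) in RE, 0.17 in KO and 0.13 in WT; each group mean given below is over 3 livers.

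Called members peaked mostly late in the night or early in the day in RE, and in the first hours of the night in WT. Of the 23 members called in RE, 21 (91.3%) peaked between ZT18 and ZT6, where 50.5% of all genes called in RE peaked. Of the 20 called in WT, 4 (20.0%) peaked in that window, where 49.6% of all genes called in WT peaked, and 15 (75.0%) peaked between ZT12 and ZT18, where 24.3% of all genes called in WT did. In RE 1 member, Slc25a15, peaked between ZT12 and ZT18, and Bckdha at ZT6.64. The span from ZT18 to ZT6 joins the fullest 6 h windows of the RE members, ZT18 to ZT24 (11) and ZT0 to ZT6 (10). Of the 23 RE calls, 7 ended without RE ZT0 liver 2 and RE ZT16 liver 2 together, and 8 on RE livers alone. Of the 10 members called in both RE and WT, 2 (Slc25a15 and Agxt) peaked within 3 h in the 2 genotypes and 3 (Gpt, Aldh4a1 and Uroc1) peaked over 6 h apart. Of all tested genes 20.4% were called in both. Their peak shifts were not counted, so whether these counts are particular to the members is not known.

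**Figure D1:**
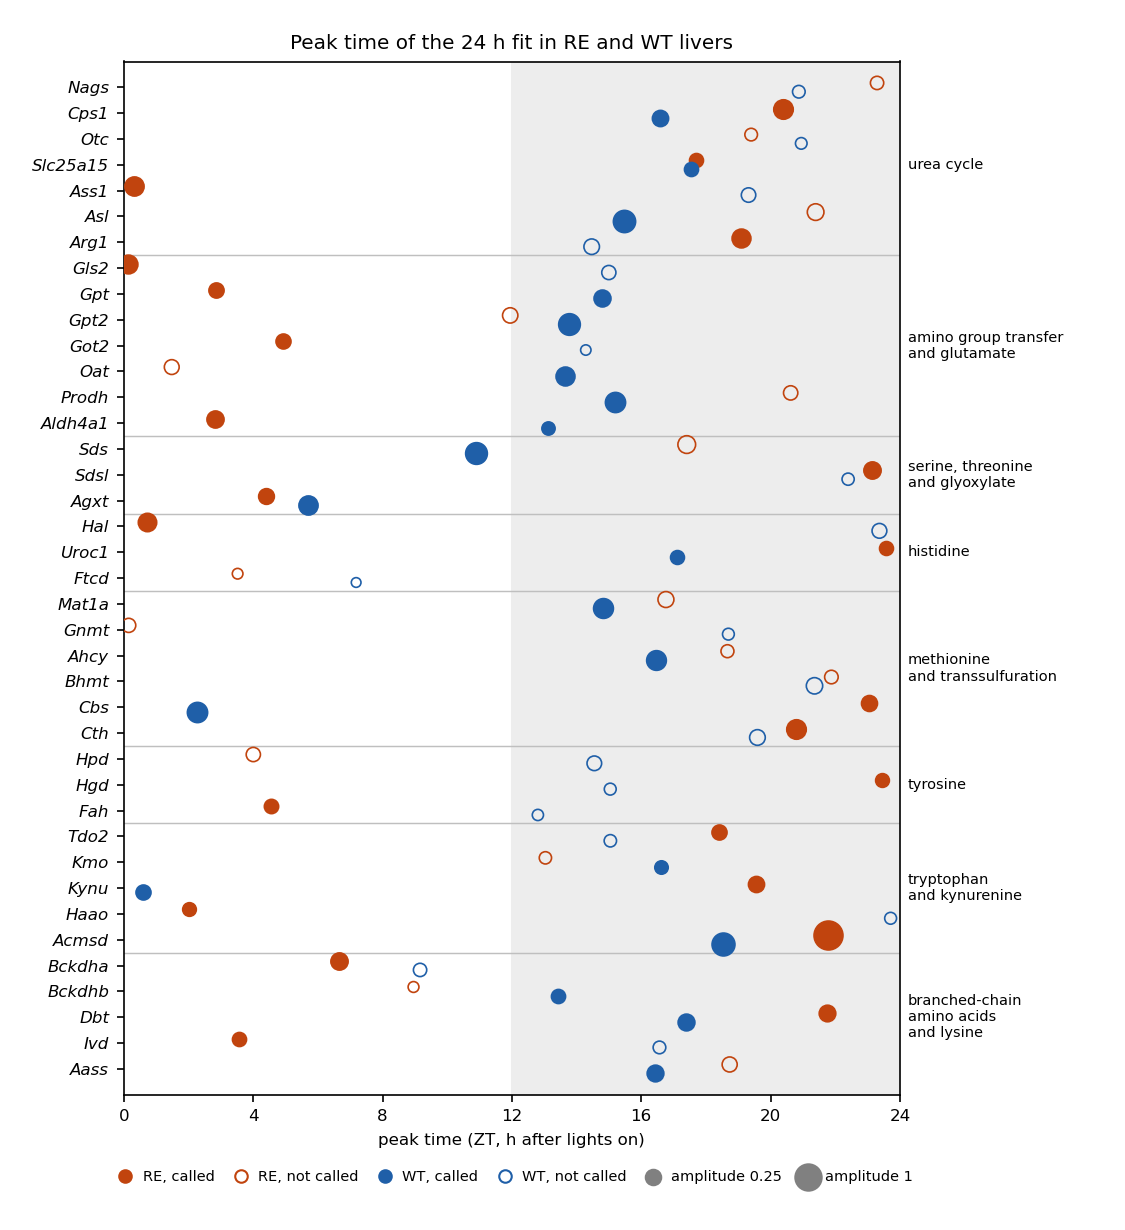
Each row is 1 gene and each point the peak time (ZT, h after lights on) of its 24 h fit in RE (orange) or WT (blue) livers; filled points were called rhythmic, point area grows with the amplitude (log2), and grey marks ZT12 to ZT24. Filled WT points gather between ZT12 and ZT18 (15 of 20), and 21 of 23 filled RE points lie between ZT18 and ZT6.

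The rhythms themselves differed between RE and WT in 19 of 39 members, where 14.1% of all tested genes differed. Between KO and WT they differed in 8 members, where 9.06% of all tested genes did, and between RE and KO in 3 members (Acmsd, Dbt and Aldh4a1), where 3.07% did. The RE and KO comparisons with WT share the WT livers. The size of a rhythm difference is the length of the difference between the 2 fitted 24 h curves on the log2 scale. Its median over the members was 0.26 for RE minus WT, 0.23 for KO minus WT and 0.17 for RE minus KO, and over all tested genes 0.16, 0.14 and 0.15. The 3 calls for RE minus KO became 0 on the RE and KO livers alone and 1 without any 1 of KO ZT0 liver 2, RE ZT12 liver 0 and RE ZT12 liver 2. The 8 calls for KO minus WT became 13 on the KO and WT livers alone, and also 13 without RE ZT0 liver 2 and RE ZT16 liver 2, which enter that test through the pooled spread alone. Calls over all tested genes moved too. With each liver left out in turn they lay between 145 and 686 for RE minus KO and between 810 and 1149 for KO minus WT. Shares of all tested genes under the other fits are not given here.

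Sequence just before the transcription start was at hand for 28 of the 39 members (30 promoters, RefSeq, GRCm38.p6, the assembly also known as mm10). These windows run from 250 bases before the start to 50 after it. The E-box bound by the BMAL1 and CLOCK proteins (CACGTG, the same on both strands) was found in Ass1, Slc25a15 and Cbs, and in 7.15% of all 32851 promoters of the table. The ROR element read by ROR and REV-ERB factors (TAGGTCA, either strand) was found in Tdo2, Aass and Bhmt, and in 2.61% of all promoters. The D-box (TTANGTAA) and the cAMP response element (TGACGTCA), searched on both strands, were found in 0 of the 30, and in 2.32% and 1.79% of all promoters. A match says that the letters are present, not that a factor binds. Annotated exons cover part of the 250 bases before some starts, all 250 in Tdo2, 203 in Bhmt, 63 in Ass1 and 33 in Cbs. Slc25a15 has more than 1 promoter entry. Its E-box lies in the one at chr8:22398278-22398527 (88 exon bases), not in the one at chr8:22398622-22398871. The sequences below, which leave out the bases from the first annotated exon onward, are given 5′ to 3′ in the direction of the gene with motifs in capitals. Oat is shown for the size of its RE minus WT rhythm difference (0.66), although that of Acmsd, which also has a sequence, was larger (0.93). Gpt2 is shown for the largest KO minus WT difference among members with a sequence. Cbs is shown for its E-box, 229 bases before the start, and Aass for its ROR element on the opposite strand, 127 bases before the start. Their positions are chr7:132576399-132576648, minus strand for Oat, chr8:85492326-85492575, plus strand for Gpt2, chr17:31637239-31637455, minus strand for Cbs and chr6:23132987-23133236, minus strand for Aass.
Oat: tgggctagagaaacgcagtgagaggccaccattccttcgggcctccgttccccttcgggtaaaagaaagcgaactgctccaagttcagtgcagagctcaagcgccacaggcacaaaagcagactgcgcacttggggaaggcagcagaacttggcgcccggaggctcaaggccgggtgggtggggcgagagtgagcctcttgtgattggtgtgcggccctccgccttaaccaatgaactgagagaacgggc
Gpt2: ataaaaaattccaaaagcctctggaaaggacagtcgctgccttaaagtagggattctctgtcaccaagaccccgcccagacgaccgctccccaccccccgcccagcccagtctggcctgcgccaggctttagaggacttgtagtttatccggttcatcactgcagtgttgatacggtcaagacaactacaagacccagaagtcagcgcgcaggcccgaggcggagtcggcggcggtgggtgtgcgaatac
Cbs: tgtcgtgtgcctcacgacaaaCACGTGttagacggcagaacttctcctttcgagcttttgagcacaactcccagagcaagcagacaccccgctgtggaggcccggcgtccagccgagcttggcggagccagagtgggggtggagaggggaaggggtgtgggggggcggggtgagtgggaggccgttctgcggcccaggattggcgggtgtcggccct
Aass: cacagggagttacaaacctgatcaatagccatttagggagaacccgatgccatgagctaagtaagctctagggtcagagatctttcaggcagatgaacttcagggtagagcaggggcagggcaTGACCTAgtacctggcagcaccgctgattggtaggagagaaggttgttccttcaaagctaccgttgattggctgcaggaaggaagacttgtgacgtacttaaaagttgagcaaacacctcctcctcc

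The urea cycle turns ammonia and the nitrogen of aspartate into urea, and the rhythms of 3 of its 7 genes (Cps1, Asl and Arg1) differed between RE and WT, where 14.1% of all tested genes did. Cps1, which encodes the rate-limiting carbamoyl phosphate synthetase, had 510.3, 749.6 and 707 FPKM in RE, 690.0, 1067 and 914 in KO and 742, 642 and 665 in WT livers at ZT8. At ZT20 it had 1307, 1434 and 1220.5 FPKM in RE, 1120.2, 1129 and 1123 in KO and 1034, 891 and 951 in WT. Cps1 group means at ZT0, 4, 8, 12, 16 and 20 were 1031, 963, 656, 759, 1232 and 1320.5 FPKM in RE, 969, 952, 890.4, 1055, 976 and 1124 in KO and 699.8, 797, 683, 884, 1090.5 and 958 in WT. All 3 livers of ZT20 lay above all 3 of ZT8 in RE, in KO and in WT. The Cps1 rhythm difference of RE minus KO was 0.38 (adjusted p 0.0612) and was not called. The amplitude was 0.48 (SE 0.07, peak ZT20.4, adjusted p 1.39e-05) in RE, 0.12 (SE 0.07, peak ZT18.6, adjusted p 0.701) in KO and 0.29 (SE 0.07, peak ZT16.6, adjusted p 0.0061) in WT. RE and WT differed by 0.41 (SE 0.10, adjusted p 0.016), which was not called in a test of any difference between times, with no 24 h shape (adjusted p 0.117). Asl, which encodes argininosuccinate lyase (chr5:130011258-130024381, minus strand), showed the largest differences of the branch. It had 244, 224 and 425 FPKM in RE, 186, 194 and 315 in KO and 631, 656 and 714 in WT at ZT16. At ZT4 it had 291, 202 and 195 FPKM in RE, 289.8, 326 and 196 in KO and 218, 342 and 239 in WT. Asl group means at ZT0, 4, 8, 12, 16 and 20 were 322, 229, 217, 182, 298 and 279 FPKM in RE, 260.3, 270.4, 200.4, 239, 232 and 245 in KO and 325, 267, 387, 565, 667 and 549.6 in WT. At ZT16 every RE and KO liver lay below every WT liver, whereas at ZT4 the 3 genotypes overlapped. Asl cycled in WT with an amplitude of 0.67 (SE 0.12, peak ZT15.5, adjusted p 0.000102), against 0.31 (adjusted p 0.0723) in RE and 0.12 (adjusted p 0.856) in KO. The rhythm differed from WT by 0.73 (SE 0.16, adjusted p 0.00654) in RE and by 0.73 (SE 0.16, adjusted p 0.00863) in KO, of which the KO one was not called in the test of any difference between times (adjusted p 0.0546).

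Asl was the urea cycle gene whose level was lower in RE and KO than in WT. Over all times it had 138, 229 and 527 FPKM in RE, 139, 225 and 372 in KO and 218, 454 and 714 in WT (lowest, median and highest of 18). The ranges overlapped. Its level fell by 0.84 (log2, SE 0.12, adjusted p 1.55e-07) in RE and by 0.88 (adjusted p 5.80e-08) in KO, relative to WT. Slc25a15, the mitochondrial ornithine carrier (chr8:22375550-22398621, minus strand), went the other way. It had 143, 180.3 and 229 FPKM in RE, 148, 182 and 219 in KO and 96.7, 112 and 142 in WT, so that every RE and KO liver lay above every WT liver. The difference from WT was 0.62 (SE 0.06, adjusted p 2.73e-12) in RE and 0.63 (SE 0.06, adjusted p 2.14e-12) in KO. Slc25a15 group means at ZT0, 4, 8, 12, 16 and 20 were 169, 166, 164, 174, 206 and 201 FPKM in RE, 186, 167, 172, 179, 189 and 186 in KO and 104, 114, 99.4, 117, 132 and 133 in WT. It cycled in RE with 0.18 (ZT17.7, adjusted p 0.0251) and in WT with 0.18 (ZT17.5, adjusted p 0.0282), and the rhythm difference was 0.01 (adjusted p 0.997). Both calls were lost without single livers, in RE without any 1 of RE ZT4 liver 0, RE ZT4 liver 1, RE ZT8 liver 1, RE ZT16 liver 2 and RE ZT20 liver 2 (adjusted p up to 0.089) and in WT without any 1 of 6 single livers (adjusted p up to 0.0974).

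Ass1, which encodes argininosuccinate synthase, cycled in RE with 0.46 (SE 0.12, peak ZT0.313, adjusted p 0.00491), against 0.20 (adjusted p 0.671) in KO and 0.20 (adjusted p 0.348) in WT. Ass1 was not called for the rhythm difference of RE minus KO (0.27, adjusted p 0.473) or RE minus WT (0.45, adjusted p 0.123). It had 345, 448 and 704 FPKM in RE, 407, 356 and 517 in KO and 427, 346 and 234 in WT at ZT0. At ZT12 it had 265, 278 and 213 FPKM in RE, 311, 378 and 376 in KO and 431, 294 and 233 in WT. Ass1 group means at ZT0, 4, 8, 12, 16 and 20 were 499, 419, 326, 252, 301 and 425 FPKM in RE, 427, 493, 426, 355, 371 and 480.2 in KO and 336, 297, 259, 319, 325 and 363 in WT. The RE livers of ZT0 all lay above those of ZT12, and RE ZT0 liver 2 was the highest. Arg1, the arginase that releases urea, cycled in RE with 0.44 (SE 0.09, peak ZT19.1, adjusted p 0.000373), against 0.25 (adjusted p 0.0529) in WT, and differed between RE and WT by 0.43 (SE 0.12, adjusted p 0.0375). That difference was lost without any 1 of 13 single livers (adjusted p up to 0.0765). Nags makes N-acetylglutamate, the activator without which Cps1 does not work. It had 32.6, 40.9 and 65.4 FPKM in RE, 37.3, 44.8 and 51.1 in KO and 33.1, 39.6 and 58.6 in WT over all times, which overlapped. Nags group means at ZT0, 4, 8, 12, 16 and 20 were 55.1, 41.0, 41.8, 39.1, 42.8 and 41.8 FPKM in RE, 48.0, 45.0, 42.9, 43.5, 44.9 and 43.1 in KO and 47.7, 37.1, 38.0, 37.4, 43.6 and 39.9 in WT. Neither Nags nor Otc, ornithine transcarbamylase, passed any of the 9 tests. In level, Cps1 was higher than in WT by 0.18 (SE 0.07, adjusted p 0.0386) in RE and 0.23 (SE 0.07, adjusted p 0.00863) in KO, and Ass1 by 0.44 (SE 0.12, adjusted p 0.00188) in KO. The RE call of Cps1 was lost without any 1 of 16 single livers (adjusted p up to 0.0893). Of the branch 4 of 7 urea cycle genes were called rhythmic in RE (46.8% of all tested genes), 0 in KO (0.0366%) and 3 in WT (34.8%).

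**Figure D2:**
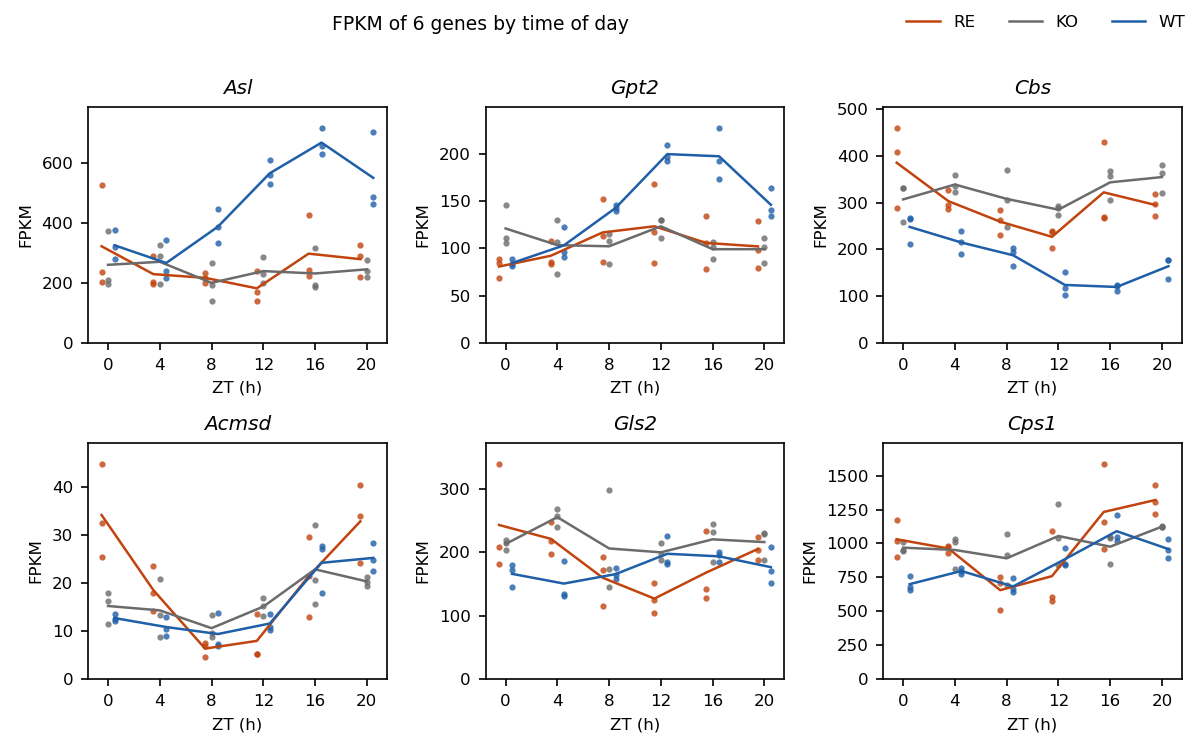
FPKM (y axis) against ZT in hours (x axis) for Asl, Gpt2, Cbs, Acmsd, Gls2 and Cps1; each point is 1 liver, lines join the means of 3 livers, and RE is orange, KO grey and WT blue. Asl and Gpt2 are high in WT livers from ZT12 to ZT16 and lower in RE and KO livers then, whereas Acmsd is highest in RE livers at ZT0 and ZT20.

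All 7 members of the branch of amino group transfer and glutamate were called for the rhythm difference between RE and WT (14.1% of all tested genes). Gls2 is the liver glutaminase, which frees ammonia from glutamine. It had 182, 209 and 338 FPKM in RE, 204, 215 and 219.8 in KO and 180.3, 172 and 146 in WT at ZT0. At ZT12 it had 124, 152 and 104 FPKM in RE, 188, 197 and 215 in KO and 226, 185 and 182 in WT. Gls2 group means at ZT0, 4, 8, 12, 16 and 20 were 243, 221, 159.8, 127, 168 and 205 FPKM in RE, 213, 255, 206, 199.8, 220.3 and 216 in KO and 166, 151, 165, 198, 193 and 176 in WT. At ZT12 all RE livers lay below all KO and WT livers. The amplitude was 0.44 (SE 0.09, peak ZT0.135, adjusted p 0.000473) in RE and 0.19 (adjusted p 0.198) in WT, and they differed by 0.59 (SE 0.12, adjusted p 0.00302). Gpt and Gpt2 are the cytosolic and the mitochondrial alanine aminotransferase, which link alanine to pyruvate. Gpt peaked on opposite sides of the day, with 0.23 (SE 0.06, peak ZT2.86, adjusted p 0.01) in RE and 0.33 (SE 0.06, peak ZT14.8, adjusted p 0.000451) in WT. The RE call was lost on RE livers alone (adjusted p 0.0556) and without RE ZT0 liver 2 and RE ZT16 liver 2 together (adjusted p 0.069). Gpt had 221, 279 and 293 FPKM in RE, 234, 223 and 273 in KO and 175, 152 and 147 in WT at ZT0. At ZT16 it had 197, 178 and 164 FPKM in RE, 247, 217 and 202 in KO and 271, 238 and 244 in WT. Gpt group means at ZT0, 4, 8, 12, 16 and 20 were 264, 252, 245, 213, 179.6 and 236 FPKM in RE, 243, 268, 217, 244, 222 and 239 in KO and 158, 161, 189, 219, 251 and 206 in WT. At ZT0 every RE liver lay above every WT liver, and at ZT16 every RE liver lay below. The rhythm difference from WT was 0.56 (SE 0.09, adjusted p 0.000103) in RE and 0.40 (SE 0.09, adjusted p 0.00777) in KO.

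Gpt2 had 134, 106 and 78.1 FPKM in RE, 101, 89.1 and 107 in KO and 227, 173 and 192 in WT at ZT16. At ZT0 it had 84.8, 69.3 and 88.8 FPKM in RE, 111, 106 and 146 in KO and 81.9, 83.3 and 88.7 in WT. Gpt2 group means at ZT0, 4, 8, 12, 16 and 20 were 81.0, 92.4, 117, 123, 106 and 102 FPKM in RE, 121, 104, 102, 123, 99.3 and 99.3 in KO and 84.6, 103, 143, 199.8, 198 and 146 in WT. The WT livers of ZT16 lay above all others of that time, and at ZT0 RE and WT overlapped. Its amplitude was 0.63 (SE 0.08, peak ZT13.8, adjusted p 1.63e-06) in WT, against 0.24 (adjusted p 0.0506) in RE and 0.02 (adjusted p 0.99) in KO. The rhythm difference from WT was 0.42 (SE 0.12, adjusted p 0.0372) in RE and 0.62 (SE 0.12, adjusted p 0.00165) in KO, of which the RE one was lost without any 1 of 14 single livers (adjusted p up to 0.0924). Prodh, proline dehydrogenase, starts the breakdown of proline to glutamate. It had 104, 86.0 and 137 FPKM in RE, 104, 101 and 77.1 in KO and 182, 142 and 148 in WT at ZT16. At ZT0 it had 111, 105 and 97.5 FPKM in RE, 91.3, 106 and 162 in KO and 78.9, 73.5 and 80.5 in WT. Prodh group means at ZT0, 4, 8, 12, 16 and 20 were 105, 112, 89.1, 104, 109 and 134 FPKM in RE, 119.8, 115, 88.4, 124, 94.1 and 115 in KO and 77.7, 82.7, 90.5, 138, 157 and 124 in WT. Every WT liver lay above every RE and KO liver at ZT16 and below them at ZT0. It cycled in WT with 0.53 (SE 0.08, peak ZT15.2, adjusted p 6.25e-06) and differed from WT by 0.53 (SE 0.11, adjusted p 0.00249) in RE and 0.57 (SE 0.11, adjusted p 0.00142) in KO.

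Aldh4a1, which completes the proline pathway to glutamate, cycled in RE with 0.34 (SE 0.05, peak ZT2.82, adjusted p 6.17e-06), against 0.08 (adjusted p 0.7) in KO and 0.14 (ZT13.1, adjusted p 0.0475) in WT. It had 166, 193 and 202 FPKM in RE, 176, 175 and 149 in KO and 133, 141 and 131 in WT at ZT0. At ZT12 it had 129, 137 and 111 FPKM in RE, 152, 179 and 173 in KO and 165, 160.3 and 138 in WT. Aldh4a1 group means at ZT0, 4, 8, 12, 16 and 20 were 187, 178, 162, 126, 119.5 and 139.9 FPKM in RE, 167, 179.8, 159, 168, 152 and 161 in KO and 135, 139, 160.2, 154, 169.8 and 144 in WT. RE livers lay above WT livers at ZT0 and below them at ZT12. The rhythm difference was 0.27 (SE 0.07, adjusted p 0.049) for RE minus KO and 0.47 (SE 0.07, adjusted p 1.45e-05) for RE minus WT. The RE minus KO call was lost without any 1 of 37 single livers (adjusted p up to 0.0921), and the WT rhythm without any 1 of 26 single livers (adjusted p up to 0.126). Got2, mitochondrial aspartate aminotransferase, cycled in RE with 0.23 (SE 0.04, peak ZT4.94, adjusted p 0.000247), against 0.03 (adjusted p 0.794) in WT, and the difference was 0.25 (SE 0.06, adjusted p 0.00987).

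Oat, ornithine aminotransferase, peaked at ZT13.6 in WT with an amplitude of 0.45 (adjusted p 0.016), against 0.22 (adjusted p 0.307) in RE, and RE minus WT was 0.66 (SE 0.18, adjusted p 0.0237). The WT call was lost without any 1 of WT ZT0 liver 0 and WT ZT4 liver 0 (adjusted p up to 0.053) and the difference without any 1 of WT ZT4 liver 2 and WT ZT12 liver 1 (adjusted p up to 0.0519). Both were lost without the 4 libraries with high markers of other tissues (adjusted p 0.142 and 0.122). Neither was called in the test of any difference between times (adjusted p 0.054 and 0.13). In level Oat had 577, 771 and 1481 FPKM in RE, 480.4, 779.8 and 1352 in KO and 244, 525 and 853 in WT. Oat group means at ZT0, 4, 8, 12, 16 and 20 were 916, 1000.4, 821, 647, 809.8 and 811 FPKM in RE, 748, 836, 647, 1013, 778 and 1009.6 in KO and 307, 462, 539, 585, 658 and 554 in WT. The ranges overlapped, and the level exceeded that of WT by 0.73 (SE 0.12, adjusted p 7.20e-06) in RE and 0.72 (SE 0.12, adjusted p 9.73e-06) in KO. Gpt was also higher, by 0.24 (adjusted p 0.00258) in RE and 0.29 (adjusted p 0.000305) in KO, and Gls2 by 0.31 (adjusted p 0.00315) and Aldh4a1 by 0.13 (adjusted p 0.0256) in KO. The last call was lost without any 1 of KO ZT16 liver 0 and KO ZT20 liver 0 (adjusted p up to 0.0532). Gpt2 was lower than in WT, with -0.46 (adjusted p 2.48e-05) in RE and -0.37 (adjusted p 0.000415) in KO.

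Among the enzymes of serine, threonine and glyoxylate, Agxt had one of the largest level differences. It encodes the alanine:glyoxylate aminotransferase (chr1:93135240-93145421, plus strand) that keeps glyoxylate from becoming oxalate. It had 379.7, 492 and 888 FPKM in RE, 362, 553 and 793 in KO and 138, 237 and 319 in WT (lowest, median and highest of 18). Every RE and KO liver lay above every WT liver. The differences from WT on the log2 scale were 1.16 (SE 0.08, adjusted p 8.07e-15) in RE and 1.25 (SE 0.08, adjusted p 8.51e-16) in KO, folds of 2.24 and 2.38 when transformed back. Agxt group means at ZT0, 4, 8, 12, 16 and 20 were 645, 544, 605, 470.1, 431 and 429 FPKM in RE, 502, 693, 524, 499.7, 602 and 515 in KO and 253, 299.5, 286, 230.4, 176 and 162 in WT. The WT means were highest at ZT4 and ZT8. Agxt cycled with 0.26 (SE 0.08, peak ZT4.41, adjusted p 0.0305) in RE and 0.46 (SE 0.08, peak ZT5.69, adjusted p 0.000205) in WT. The RE call was lost without any 1 of RE ZT4 liver 2, RE ZT4 liver 0, RE ZT16 liver 1, RE ZT16 liver 2 and RE ZT20 liver 0 (adjusted p up to 0.0762). Sds, serine dehydratase, had 115, 221 and 131 FPKM in RE, 82.7, 115 and 134 in KO and 406, 300.0 and 227 in WT at ZT12. At ZT0 it had 78.5, 125 and 326 FPKM in RE, 131, 161 and 180.1 in KO and 126, 110.4 and 93.8 in WT. Sds group means at ZT0, 4, 8, 12, 16 and 20 were 177, 95.6, 118, 156, 164 and 162 FPKM in RE, 158, 132, 156, 110.4, 184 and 135 in KO and 110.1, 124, 173, 311, 124 and 112 in WT. The WT livers of ZT12 lay above every RE and KO liver of that time, and RE ZT0 liver 2 was far above the other RE livers of ZT0. Sds cycled in WT with 0.63 (SE 0.16, peak ZT10.9, adjusted p 0.00578), against 0.37 (adjusted p 0.119) in RE, and differed by 0.78 (SE 0.22, adjusted p 0.0376), a call lost without any 1 of 13 single livers (adjusted p up to 0.0813). Sdsl group means at ZT0, 4, 8, 12, 16 and 20 were 21.5, 13.9, 11.2, 10.8, 13.2 and 14.7 FPKM in RE, 15.4, 14.8, 14.6, 9.95, 15.1 and 12.6 in KO and 15.1, 10.7, 12.0, 12.2, 11.4 and 12.6 in WT. Sdsl, the homologue of Sds, cycled in RE with 0.35 (SE 0.11, peak ZT23.1, adjusted p 0.0281). That call was lost without any 1 of RE ZT0 liver 2, RE ZT12 liver 2, RE ZT12 liver 0 and RE ZT20 liver 2 (adjusted p up to 0.195). Sdsl was not called for the rhythm difference of RE minus WT.

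Histidine breakdown starts with histidase, encoded by Hal. Hal had 148, 194 and 141 FPKM in RE, 143, 168 and 124 in KO and 161, 105 and 145 in WT at ZT20. At ZT16 it had 75.9, 92.7 and 94.1 FPKM in RE, 166, 137 and 127 in KO and 168, 149.8 and 130.1 in WT. Hal group means at ZT0, 4, 8, 12, 16 and 20 were 157, 149, 116, 101, 87.6 and 161 FPKM in RE, 136, 169, 139, 136, 143 and 145 in KO and 177, 140.0, 132, 113, 149 and 137 in WT. All RE livers of ZT16 lay below all KO and WT livers of that time. The amplitude was 0.41 (SE 0.08, peak ZT0.704, adjusted p 0.000632) in RE, 0.07 (adjusted p 0.91) in KO and 0.22 (adjusted p 0.106) in WT. Hal was not called for the rhythm difference of RE minus KO (0.36, adjusted p 0.13) or of RE minus WT. Uroc1 group means at ZT0, 4, 8, 12, 16 and 20 were 143, 140.3, 126, 116, 122 and 151 FPKM in RE, 144, 146, 149, 153, 130.0 and 138 in KO and 127, 119.9, 122, 131, 155 and 142 in WT. Uroc1 is urocanase, the next enzyme, and cycled at different times, with 0.18 (SE 0.05, peak ZT23.6, adjusted p 0.0132) in RE and 0.17 (SE 0.05, peak ZT17.1, adjusted p 0.0188) in WT, and differed by 0.26 (SE 0.07, adjusted p 0.026). These calls rested on single livers: the RE rhythm was lost without any 1 of RE ZT0 liver 2 and RE ZT12 liver 2 (adjusted p up to 0.072), the WT rhythm without WT ZT4 liver 2 (adjusted p 0.0773) and the difference without any 1 of RE ZT0 liver 2, WT ZT4 liver 2, RE ZT4 liver 2, WT ZT12 liver 0 and RE ZT12 liver 2 (adjusted p up to 0.0645). Ftcd, which ends the pathway by passing a one-carbon unit to folate, was called for no rhythm. Ftcd group means at ZT0, 4, 8, 12, 16 and 20 were 211, 203, 201, 206, 189 and 199 FPKM in RE, 187, 178, 178, 173, 200.2 and 183 in KO and 187, 178, 190.4, 172, 194 and 171 in WT. Its level was higher in RE than in WT by 0.14 (SE 0.05, adjusted p 0.0154).

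In level 5 of 6 methionine and transsulfuration genes differed from WT in RE and 5 of 6 in KO, where 45.9% and 42.3% of all tested genes did. Bhmt, which remethylates homocysteine with betaine (chr13:93616891-93637758, minus strand), had 3502, 5546 and 7051 FPKM in RE, 2249.8, 4376 and 7529.7 in KO and 1034, 2246 and 3553 in WT (lowest, median and highest of 18). Bhmt group means at ZT0, 4, 8, 12, 16 and 20 were 5311, 5525, 5229.7, 5149, 5059.7 and 6979 FPKM in RE, 5471, 4554, 3004, 5884, 3650.5 and 5481 in KO and 2075, 2747, 1893, 1554, 2947 and 2769 in WT. The lowest RE and KO livers overlapped the highest WT livers. In level Bhmt exceeded WT by 1.28 (SE 0.12, adjusted p 6.41e-12) in RE and 0.98 (SE 0.12, adjusted p 5.82e-09) in KO, folds of 2.43 and 1.97 when transformed back from log2. Bhmt had no called rhythm, with amplitudes of 0.16 (adjusted p 0.488) in RE, 0.21 (adjusted p 0.635) in KO and 0.30 (adjusted p 0.112) in WT. Cbs makes cystathionine from homocysteine and commits it to cysteine. It had 239.7, 237 and 204 FPKM in RE, 274, 293 and 288 in KO and 152, 119 and 102 in WT at ZT12. At ZT0 it had 288, 408 and 458 FPKM in RE, 332, 331 and 258 in KO and 265, 267 and 212 in WT. Cbs group means at ZT0, 4, 8, 12, 16 and 20 were 385, 303, 259, 227, 322 and 295 FPKM in RE, 307, 338, 308, 285, 343 and 354 in KO and 248, 215, 187, 124, 119.8 and 164 in WT. Every RE and KO liver lay above every WT liver at ZT12, and at ZT0 KO and WT overlapped. The amplitude was 0.28 (SE 0.07, peak ZT23.0, adjusted p 0.00312) in RE, 0.09 (adjusted p 0.753) in KO and 0.53 (SE 0.07, peak ZT2.26, adjusted p 2.58e-07) in WT. The rhythm differed from WT by 0.40 (SE 0.09, adjusted p 0.00812) in RE and 0.52 (SE 0.09, adjusted p 0.000563) in KO, with the RE one lost without the 4 libraries with high markers of other tissues (adjusted p 0.0525). In level Cbs exceeded WT by 0.78 (SE 0.07, adjusted p 6.67e-13) in RE and 0.92 (SE 0.07, adjusted p 7.23e-15) in KO.

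Cth, the lyase that releases cysteine from cystathionine, had 221, 333 and 827 FPKM in RE, 245, 407 and 644 in KO and 189, 244 and 402 in WT. Cth group means at ZT0, 4, 8, 12, 16 and 20 were 439.8, 368, 263, 271, 494 and 511 FPKM in RE, 367, 396, 296, 459, 362 and 497 in KO and 250.1, 242, 217, 227, 282 and 331 in WT. The ranges overlapped, and the highest value was RE ZT16 liver 2. Its level was higher than in WT by 0.53 (SE 0.11, adjusted p 6.42e-05) in RE and 0.61 (SE 0.11, adjusted p 9.05e-06) in KO, and it cycled in RE with 0.48 (SE 0.11, peak ZT20.8, adjusted p 0.00131). In WT the Cth amplitude was 0.26 (peak ZT19.6, adjusted p 0.125). Its rhythm difference was not called for RE minus KO (0.35, adjusted p 0.255) or for RE minus WT. Ahcy, which splits S-adenosylhomocysteine, was lower. It had 307, 433 and 1008 FPKM in RE, 272, 370.0 and 549.9 in KO and 407, 597 and 995 in WT. Ahcy group means at ZT0, 4, 8, 12, 16 and 20 were 453, 419, 444, 376, 619.7 and 448 FPKM in RE, 407, 451, 349, 439.7, 336 and 418 in KO and 515, 455, 484, 685, 884 and 749 in WT. The ranges overlapped, again with RE ZT16 liver 2 highest. The level was -0.46 (SE 0.10, adjusted p 0.000236) for RE minus WT and -0.63 (SE 0.10, adjusted p 2.07e-06) for KO minus WT. Ahcy cycled in WT with 0.49 (SE 0.10, peak ZT16.5, adjusted p 0.000738) and differed between KO and WT by 0.55 (SE 0.14, adjusted p 0.0263), a call lost without any 1 of WT ZT4 liver 0, KO ZT4 liver 0, KO ZT4 liver 1 and WT ZT16 liver 0 (adjusted p up to 0.0705). Mat1a, which makes S-adenosylmethionine, cycled in WT with 0.50 (SE 0.14, peak ZT14.8, adjusted p 0.0168), and that call was lost without WT ZT16 liver 0 (adjusted p 0.0514). In RE the amplitude was 0.13 (adjusted p 0.502) for Ahcy and 0.27 (adjusted p 0.238) for Mat1a. Neither was called for the rhythm difference of RE minus WT. Gnmt, which uses up S-adenosylmethionine, was higher in level by 0.25 (adjusted p 0.0393) in RE and 0.36 (adjusted p 0.00343) in KO, the RE call being lost without any 1 of 16 single livers (adjusted p up to 0.0817). Gnmt was called for no rhythm.

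All 3 tyrosine enzymes were higher in level in RE and KO than in WT, where 24.2% and 22.1% of all tested genes were higher. Hgd, homogentisate dioxygenase, had 569.6, 699 and 910.4 FPKM in RE, 589, 765 and 925 in KO and 448, 540.4 and 611 in WT. Hgd group means at ZT0, 4, 8, 12, 16 and 20 were 762, 776, 671, 585, 733 and 754 FPKM in RE, 710.4, 813, 663, 754, 731 and 819 in KO and 509, 509, 552, 541, 584 and 556 in WT. The ranges overlapped. The differences from WT were 0.39 (SE 0.05, adjusted p 1.06e-07) in RE and 0.46 (SE 0.05, adjusted p 1.91e-09) in KO. Hpd, which makes homogentisate, was higher by 0.34 (adjusted p 0.000174) and 0.34 (adjusted p 0.000189), and Fah, the last enzyme of the pathway, by 0.25 (adjusted p 5.48e-05) and 0.27 (adjusted p 1.58e-05). Fah group means at ZT0, 4, 8, 12, 16 and 20 were 624, 634, 664, 552, 495 and 555 FPKM in RE, 599.8, 671, 539, 607, 542 and 609 in KO and 473, 472, 514, 489.5, 524 and 479 in WT. Hpd group means at ZT0, 4, 8, 12, 16 and 20 were 1774, 1723, 1721, 1449.8, 1366 and 1488 FPKM in RE, 1496, 2003, 1376, 1548, 1424 and 1639 in KO and 1081, 1108, 1214, 1353, 1448 and 1274 in WT. Fah and Hgd cycled in RE, with 0.19 (SE 0.05, peak ZT4.56, adjusted p 0.00488) and 0.17 (SE 0.05, peak ZT23.4, adjusted p 0.027), and none of the 3 was called rhythmic in WT. The Hgd rhythm was lost without any 1 of RE ZT0 liver 2, RE ZT8 liver 2 and RE ZT12 liver 2 (adjusted p up to 0.144), and its rhythm difference of RE minus WT was not called. Rhythms of RE and WT differed for Hpd by 0.39 (SE 0.10, adjusted p 0.0223) and for Fah by 0.23 (SE 0.07, adjusted p 0.0436). The first was lost without any 1 of WT ZT4 liver 2, WT ZT4 liver 0 and RE ZT4 liver 2 (adjusted p up to 0.0531) and the second without any 1 of 23 single livers (adjusted p up to 0.111).

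The tryptophan branch held the largest rhythm of all 39 genes. Acmsd encodes the decarboxylase that diverts tryptophan carbon away from NAD synthesis. It had 32.4, 25.3 and 44.6 FPKM in RE, 16.3, 11.5 and 17.8 in KO and 13.5, 12.2 and 12.4 in WT at ZT0. At ZT8 it had 7.43, 4.61 and 6.96 FPKM in RE, 9.63, 13.4 and 8.73 in KO and 13.8, 6.96 and 7.32 in WT. Acmsd group means at ZT0, 4, 8, 12, 16 and 20 were 34.1, 18.5, 6.33, 7.94, 21.4 and 32.8 FPKM in RE, 15.2, 14.3, 10.6, 15.1, 22.8 and 20.3 in KO and 12.7, 10.8, 9.37, 11.6, 24.2 and 25.2 in WT. Every RE liver lay above every KO and WT liver at ZT0, and below every KO liver at ZT8. The amplitude was 1.23 (SE 0.12, peak ZT21.8, adjusted p 5.04e-08) in RE, 0.45 (SE 0.12, peak ZT18.3, adjusted p 0.2) in KO and 0.72 (SE 0.12, peak ZT18.5, adjusted p 7.78e-05) in WT. The rhythm difference was 1.02 (SE 0.17, adjusted p 0.00609) for RE minus KO and 0.93 (SE 0.17, adjusted p 0.000803) for RE minus WT, and the level did not pass in any comparison. Both differences were called without each single liver in turn. The RE minus KO one was not called on RE and KO livers alone (adjusted p 0.0658) or in the test of any difference between times (adjusted p 0.0537).

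Kynu, kynureninase (chr2:43555258-43683048, plus strand), differed most in level within this branch. It had 96.0, 137 and 215 FPKM in RE, 104, 135 and 190.2 in KO and 54.3, 82.1 and 99.1 in WT. Kynu group means at ZT0, 4, 8, 12, 16 and 20 were 130.0, 136, 107, 116, 169 and 166 FPKM in RE, 133, 128, 115, 142, 125 and 164 in KO and 89.1, 94.9, 80.5, 64.0, 79.4 and 88.2 in WT. Every KO liver lay above every WT liver, while the lowest RE liver lay below the highest WT liver. The differences from WT were 0.71 (SE 0.06, adjusted p 2.88e-13) in RE and 0.69 (SE 0.06, adjusted p 6.46e-13) in KO. Kynu peaked at different times, with 0.28 (SE 0.06, peak ZT19.5, adjusted p 0.0007) in RE and 0.23 (SE 0.06, peak ZT0.595, adjusted p 0.00811) in WT, and the rhythm difference of 0.32 (SE 0.08, adjusted p 0.0208) was lost without RE ZT16 liver 2 (adjusted p 0.0629). Tdo2, the tryptophan dioxygenase that opens the pathway, had 544, 731 and 1394 FPKM in RE, 532, 689 and 830.4 in KO and 642, 815 and 972 in WT. Tdo2 group means at ZT0, 4, 8, 12, 16 and 20 were 762, 699, 639.8, 691, 1008 and 802 FPKM in RE, 673, 672, 681, 657, 711 and 715 in KO and 699, 789, 786, 822, 861 and 871 in WT. These overlapped, with RE ZT16 liver 2 highest. Its level was -0.24 (SE 0.07, adjusted p 0.0068) for KO minus WT, and it cycled in RE with 0.23 (SE 0.07, peak ZT18.4, adjusted p 0.0244), a call lost without any 1 of RE ZT8 liver 0, RE ZT8 liver 1, RE ZT16 liver 2 and RE ZT20 liver 1 (adjusted p up to 0.105). Kmo, kynurenine monooxygenase, cycled in WT with 0.15 (ZT16.6, adjusted p 0.0377) and was higher in RE than in WT by 0.24 (adjusted p 8.33e-05). Haao, which makes the direct substrate of Acmsd, cycled in RE with 0.16 (ZT2.01, adjusted p 0.0299). The Kmo rhythm was lost without any 1 of 9 single livers (adjusted p up to 0.167) and the Haao rhythm without any 1 of 7 single livers (adjusted p up to 0.0822). None of Tdo2, Kmo and Haao was called for the rhythm difference of RE minus WT.

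Branched-chain amino acids are oxidised by a dehydrogenase complex. Of its subunit genes, Dbt was called rhythmic in RE and WT, Bckdha in RE and Bckdhb in WT. Timing was not compared between genes by a test. Dbt, the transacylase core, had 40.0, 34.0 and 39.3 FPKM in RE, 29.2, 29.4 and 25.2 in KO and 26.0, 29.0 and 28.9 in WT at ZT0. At ZT16 it had 34.4, 29.0 and 32.9 FPKM in RE, 35.5, 30.6 and 30.2 in KO and 45.2, 43.5 and 38.5 in WT. Dbt group means at ZT0, 4, 8, 12, 16 and 20 were 37.7, 33.6, 25.0, 28.3, 32.1 and 39.7 FPKM in RE, 27.9, 32.3, 29.1, 32.4, 32.1 and 35.5 in KO and 28.0, 28.7, 25.9, 31.3, 42.4 and 38.4 in WT. RE livers lay above KO and WT livers at ZT0, and WT livers lay above RE and KO livers at ZT16. The amplitude was 0.31 (SE 0.05, peak ZT21.8, adjusted p 1.85e-05) in RE, 0.08 (adjusted p 0.652) in KO and 0.32 (SE 0.05, peak ZT17.4, adjusted p 7.05e-06) in WT. Dbt was called for all 3 rhythm differences, 0.29 (SE 0.07, adjusted p 0.0275) for RE minus KO, 0.34 (SE 0.07, adjusted p 0.00154) for RE minus WT and 0.24 (SE 0.07, adjusted p 0.0464) for KO minus WT. The RE minus KO call was lost without any 1 of KO ZT0 liver 2, RE ZT0 liver 0, KO ZT12 liver 0, RE ZT12 liver 2 and RE ZT12 liver 0 (adjusted p up to 0.0614), and the KO minus WT call without any 1 of 30 single livers (adjusted p up to 0.095). Bckdha, the alpha subunit of the decarboxylase, cycled in RE with 0.35 (SE 0.06, peak ZT6.64, adjusted p 7.99e-05), against 0.12 (adjusted p 0.542) in KO and 0.15 (adjusted p 0.116) in WT. Its rhythm difference was not called for RE minus KO (0.29, adjusted p 0.075) or for RE minus WT. Bckdhb, the beta subunit, had 70.3, 80.5 and 97.6 FPKM in RE, 62.6, 79.7 and 99.0 in KO and 56.2, 67.2 and 83.3 in WT. Bckdhb group means at ZT0, 4, 8, 12, 16 and 20 were 81.6, 78.2, 89.1, 83.3, 78.6 and 81.2 FPKM in RE, 81.5, 91.1, 72.9, 83.8, 76.9 and 82.8 in KO and 57.7, 59.3, 69.8, 70.5, 76.0 and 64.7 in WT. The ranges overlapped. Its level was higher than in WT by 0.31 (SE 0.04, adjusted p 3.12e-08) in RE and 0.30 (SE 0.04, adjusted p 7.24e-08) in KO, and it cycled in WT with 0.19 (SE 0.04, peak ZT13.4, adjusted p 0.0013). KO and WT rhythms of Bckdhb differed by 0.24 (SE 0.06, adjusted p 0.00957). In RE its amplitude was 0.05 (adjusted p 0.534), and the rhythm difference of RE minus WT was not called.

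Ivd, isovaleryl-CoA dehydrogenase of leucine breakdown, cycled in RE with 0.18 (SE 0.05, peak ZT3.55, adjusted p 0.0133) and differed between RE and WT by 0.30 (SE 0.07, adjusted p 0.0125). The RE rhythm was lost without RE ZT16 liver 2 (adjusted p 0.0607). The difference was not called in the test of any difference between times (adjusted p 0.0676) or without the 4 libraries with high markers of other tissues (adjusted p 0.0761). Aass, the first enzyme of lysine breakdown, cycled in WT with 0.32 (SE 0.08, peak ZT16.4, adjusted p 0.00952) and was higher in level in RE than in WT by 0.27 (SE 0.08, adjusted p 0.00608). In RE the Aass amplitude was 0.23 (peak ZT18.7, adjusted p 0.0595), and the rhythm difference of RE minus WT was not called.

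Levels over the 6 times differed between RE and WT in 20 of 39 members, where 45.9% of all tested genes differed, and between KO and WT in 21, where 42.3% did. They were higher in RE than in WT for 17 members (43.6%), where 24.2% of all tested genes were higher, and lower for 3 (7.69%; Asl, Gpt2 and Ahcy), where 21.7% were lower. For KO against WT, 17 members (43.6%) were higher, where 22.1% of all tested genes were, and 4 (10.3%; the same 3 and Tdo2) lower, where 20.2% were. The median level difference of the members was 0.14 for RE minus WT and 0.13 for KO minus WT, and over all tested genes 0.01 and 0.00. Between RE and KO, 0 of 39 were called in limma, where 0.192% of all tested genes were (0.0732% higher and 0.119% lower); 8 members passed an unadjusted p under 0.05, and 1 was called without RE ZT8 liver 0. All 18 livers lay apart from the 18 WT livers for 2 members in RE (Slc25a15 and Agxt), where 1.34% of all tested genes did, and for 3 in KO (Slc25a15, Agxt and Kynu), where 1.61% did.

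**Figure D3:**
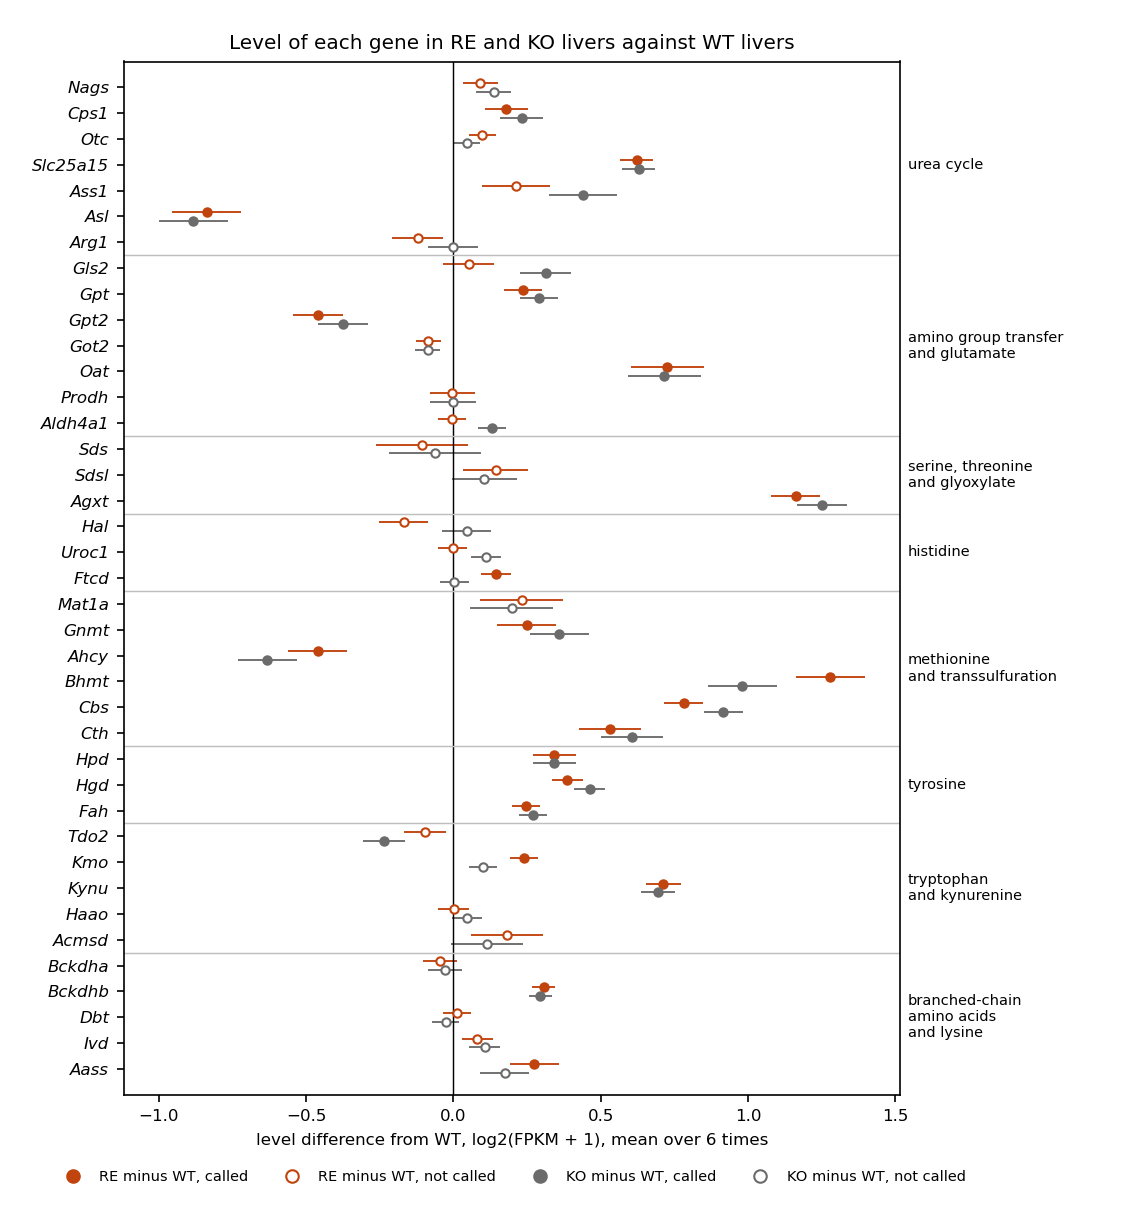
Each row is 1 gene; points are the level difference from WT, log2(FPKM + 1) averaged over the 6 times, in RE (orange) and KO (grey), bars are the SE and filled points were called. Of the filled points, 17 lie above 0 in each genotype, while 3 in RE and 4 in KO lie below 0.

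**Figure D4:**
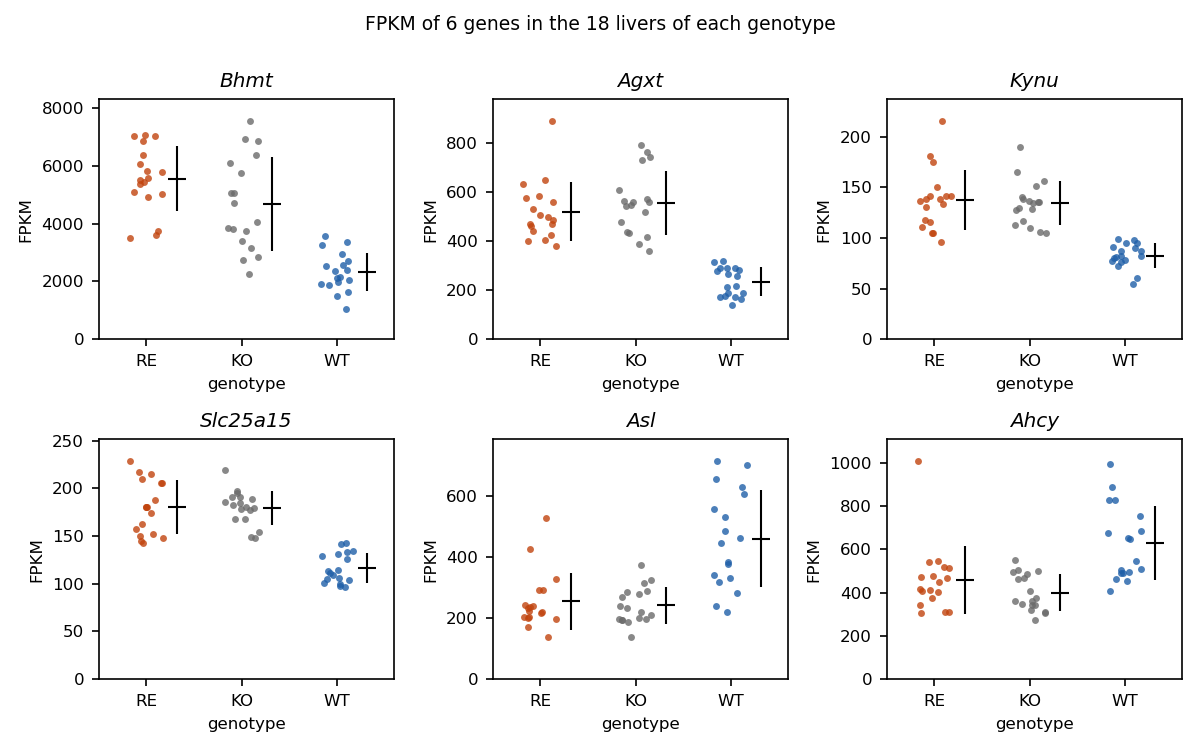
FPKM (y axis) of Bhmt, Agxt, Kynu, Slc25a15, Asl and Ahcy in each of the 18 livers of RE, KO and WT; black marks are the mean and SD. Agxt and Slc25a15 values of RE and KO livers all lie above those of WT livers, and Asl and Ahcy means are lower in RE and KO than in WT, with overlap.

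Another 58 genes of the same pathways, enzymes and amino acid carriers that are not among the 39, gave 56 tested genes. Called rhythmic were 33 in RE (58.9%, against 46.8% of all tested genes), 0 in KO (against 0.0366%, with 5 at an unadjusted p under 0.05) and 27 in WT (48.2%, against 34.8%). Rhythm differences were called in 1 gene for RE minus KO (1.79%, against 3.07%), 20 for RE minus WT (35.7%, against 14.1%) and 11 for KO minus WT (19.6%, against 9.06%). Gldc and Amt encode subunits of the glycine cleavage system. Gldc had 52.3, 69.7 and 85.2 FPKM in RE, 50.9, 66.0 and 80.0 in KO and 22.1, 52.0 and 68.4 in WT. The Gldc rhythm was 0.14 (adjusted p 0.131) in RE and 0.66 (SE 0.06, peak ZT21.6, adjusted p 6.12e-11) in WT, and differed from WT by 0.61 (SE 0.08, adjusted p 4.78e-06) in RE and 0.70 (SE 0.08, adjusted p 3.70e-07) in KO. Amt cycled in RE with 0.40 (SE 0.05, peak ZT3.33, adjusted p 3.14e-06) and in WT with 0.60 (SE 0.05, peak ZT1.64, adjusted p 1.10e-10), and was the gene called for RE minus KO, 0.34 (SE 0.08, adjusted p 0.0275). Slc38a3, a glutamine carrier, differed from WT by 0.86 (SE 0.08, adjusted p 2.82e-09) in RE and 0.74 (SE 0.08, adjusted p 9.39e-08) in KO. Slc43a1, a carrier of large neutral amino acids, differed by 0.57 (adjusted p 0.000312) and 0.54 (adjusted p 0.000633).

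In level, 27 of these 56 genes were higher and 12 lower in RE than in WT, where 24.2% and 21.7% of all tested genes were. In KO 24 were higher and 11 lower than in WT, where 22.1% and 20.2% of all tested genes were, with 0 called between RE and KO in limma (7 at an unadjusted p under 0.05). Ddc, aromatic amino acid decarboxylase, was higher than in WT by 1.08 (SE 0.09, adjusted p 5.46e-13) in RE and 1.02 (SE 0.09, adjusted p 2.62e-12) in KO. Pcca, of propionyl-CoA carboxylase, was higher by 0.45 (adjusted p 1.11e-13) and 0.40 (adjusted p 3.14e-12), and Acad8, of valine breakdown, by 0.40 (adjusted p 1.36e-13) and 0.36 (adjusted p 3.96e-12). Slc38a3 was lower, with -0.74 (adjusted p 9.85e-14) in RE and -0.60 (adjusted p 3.36e-11) in KO.

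Of 13 regulators of amino acid breakdown, 9 were called rhythmic in RE (69.2%, against 46.8% of all tested genes), 0 in KO (against 0.0366%, with 1 at an unadjusted p under 0.05) and 7 in WT (53.8%, against 34.8%). Rhythm differences were called in 3 for RE minus KO (23.1%, against 3.07%), 1 for RE minus WT (7.69%, against 14.1%) and 3 for KO minus WT (23.1%, against 9.06%). Gcgr, the glucagon receptor, cycled in RE with 0.24 (SE 0.04, peak ZT8.80, adjusted p 1.23e-05) and differed between RE and KO by 0.25 (SE 0.05, adjusted p 0.0177). Sirt3, a mitochondrial deacetylase, cycled in RE with 0.34 (SE 0.05, peak ZT9.31, adjusted p 5.44e-06) and in WT with 0.21 (SE 0.05, peak ZT8.83, adjusted p 0.00263), and differed between RE and KO by 0.31 (SE 0.07, adjusted p 0.0224). Cebpb, a transcription factor induced by cAMP and glucocorticoids, differed by 0.83 (SE 0.21, adjusted p 0.0449) for RE minus KO and 0.81 (SE 0.21, adjusted p 0.0236) for KO minus WT. Cebpa, a transcription factor that sets hepatocyte gene expression, peaked at ZT0.776 in RE and ZT8.06 in WT. It was the regulator called for RE minus WT, 0.40 (SE 0.08, adjusted p 0.0019), and its level was -0.58 (SE 0.06, adjusted p 3.86e-11) for RE minus WT and -0.56 (SE 0.06, adjusted p 6.91e-11) for KO minus WT. Nr3c1, the glucocorticoid receptor, cycled in RE with 0.29 (ZT20.4, adjusted p 0.0016) and in WT with 0.21 (ZT16.0, adjusted p 0.0317). In level, 2 regulators were higher and 3 lower in RE than in WT, and 2 higher and 6 lower in KO than in WT; 38.5% and 61.5% of them differed, against 45.9% and 42.3% of all tested genes.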

How the data were processed

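Liver RNA of 54 libraries was sequenced. The authors deposited 1 table of FPKM per gene and library, and per the submitters' processing notes reads were handled with TopHat and genome build mm10; versions, FPKM tool, annotation and strandedness: not given in the sources used here. Since the table holds no counts, the absolute depth is unknown and no counting interval can be given. Total FPKM per library lay between 572995 and 751399, and 14654 to 15810 genes were above 0. Low values come in steps of 1 fragment, which put the relative depth at 0.777 to 1.19 of the median in RE, 0.800 to 1.36 in KO and 0.725 to 1.15 in WT.

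Columns were matched to genotype and time by name. Their numbers (0 to 2) differ from those of the labels (1 to 3) and only name a liver here ("WT ZT0 liver 0"). Tested were genes whose mean reached 1 FPKM in any of the 18 groups (10932 of 24346, all 39 members among them), as log2(FPKM + 1), in limma 3.58.1 under R 4.3.3, which understates changes of low genes. A model with 1 mean per group and 36 residual degrees of freedom gave moderated F tests of the 24 h cosine and sine terms in each genotype and of their differences between genotypes, and two-sided moderated tests of level, the mean over the 6 times. Adjusted p is by Benjamini and Hochberg over all tested genes, with calls under 0.05. A fit with a replicate block was not run. The steps were tested on simulated data.

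The members, the other lists and the rule for which genes are given in full were chosen with earlier results of these data known. That rule takes, in each of 8 branches, the member with the smallest adjusted p in each comparison called, plus Cps1, Nags, Cbs, Tdo2, Hal and Agxt; other members are given as their results bear. Alternatives were a pseudocount of 0.1, a filter at 5 FPKM or none, equal library medians, genotypes compared alone, a test of any difference between times and leaving out each liver. Fits without 4 libraries with high markers of other tissues, and without RE ZT0 liver 2 and RE ZT16 liver 2, were added after seeing the data. The 4 were not set by 1 threshold over all libraries. RE ZT12 liver 1 stayed in with a bile duct sum of 149 FPKM, above the 127 FPKM of WT ZT4 liver 0, which was left out. Some sequences and genes are not reported here.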

Additional observations from a re-analysis of the deposited data

Results flagged for a closer look

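A gene is listed here when a test of the difference itself called its rhythm different between 2 genotypes. Sizes are lengths of the difference between the fitted 24 h curves (log2). No group of livers was large enough within one time for a check of single outlying values.

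Between RE and KO the size was 0.27 for Aldh4a1, 1.02 for Acmsd and 0.29 for Dbt. Acmsd was the one called without each single liver in turn.

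Between RE and WT, the urea cycle genes Cps1, Asl and Arg1 differed by 0.41, 0.73 and 0.43. In the glutamate branch Gls2 differed by 0.59, Gpt by 0.56, Gpt2 by 0.42, Got2 by 0.25, Oat by 0.66, Prodh by 0.53 and Aldh4a1 by 0.47. Sds differed by 0.78, Uroc1 by 0.26 and Cbs by 0.40. The tyrosine genes Hpd and Fah differed by 0.39 and 0.23, and the tryptophan genes Kynu and Acmsd by 0.32 and 0.93. Dbt and Ivd, of branched-chain amino acids, differed by 0.34 and 0.30. Of these 19 calls, 11 held without each single liver in turn.

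Between KO and WT, Asl differed by 0.73, Gpt by 0.40, Gpt2 by 0.62, Prodh by 0.57, Ahcy by 0.55, Cbs by 0.52, Bckdhb by 0.24 and Dbt by 0.24. Of these 8 calls, 6 held without each single liver in turn.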

How the results depend on the processing

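Counts of called members stayed within 1.5 times of those reported with a pseudocount of 0.1, a filter at 5 FPKM, no filter and equal library medians. With genotypes compared alone, 15 members were called rhythmic in RE, and rhythm differences were called in 0 for RE minus KO and 13 for KO minus WT. With a test of any difference between times in place of a 24 h curve, rhythm differences were called in 0 for RE minus KO, 9 for RE minus WT and 5 for KO minus WT. Without RE ZT0 liver 2 and RE ZT16 liver 2 together, 13 were called for KO minus WT and 1 level for RE minus KO. The cause was not tested, except that fewer livers entered the last fits. Shares of all tested genes under these fits, and without the 4 libraries below, are not given here. These changes can therefore not be read as traits of the members. With each liver left out in turn, calls over all tested genes lay between 145 and 686 for RE minus KO. They lay between 1214 and 1771 for RE minus WT and between 810 and 1149 for KO minus WT. Leaving out each liver in turn gave 20 to 26 rhythmic members in RE, 0 to 0 in KO and 16 to 22 in WT, rhythm differences of 1 to 4 for RE minus KO, 14 to 21 for RE minus WT and 6 to 12 for KO minus WT, and level calls of 0 to 1, 18 to 22 and 20 to 22. Without the 4 libraries with high markers of other tissues (WT ZT0 liver 0, WT ZT4 liver 0, KO ZT16 liver 2 and RE ZT16 liver 2), 20 members were called rhythmic in RE, 0 in KO and 16 in WT, rhythm differences were called in 2 for RE minus KO, 14 for RE minus WT and 7 for KO minus WT, and levels in 0, 18 and 22. Of 114 single calls, 0 ended with the other pseudocount or the filter at 5 FPKM, 1 with equal library medians, 11 with no filter, 12 with genotypes alone, 18 without those 4 libraries and 15 without the 2 RE livers. The test of any difference between times ended 30 of the 73 rhythm and rhythm difference calls. It ended 8 of 23 rhythms in RE (Slc25a15, Sdsl, Agxt, Uroc1, Hgd, Tdo2, Haao and Ivd), 6 of 20 in WT, and rhythm differences in 3 of 3 for RE minus KO, 10 of 19 for RE minus WT and 3 of 8 for KO minus WT. No level call changed sign under any alternative run. The size of a rhythm or rhythm difference has no sign, so a change of direction could not show for those calls. No paired analysis was possible because the column numbers (0 to 2) are not the replicate numbers of the labels (1 to 3), so no column can be tied to a numbered liver. Depth limits are unknown, since no counts are at hand.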
